A study of Cervus nippon with 40 samples.

Results

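Lung was compared with spleen in the small RNA libraries of the Sika Deer (Cervus nippon), using the 4 lung and the 4 spleen libraries, 8 of the 40 libraries of the series. The series covered 10 organs of male deer of the Shuangyang breed at 4 stages, namely juvenile deer 1 year old, deer in adolescence at 3 years, adults of 5 years and aged deer of 10 years. No deer was treated. Each library was made from pooled RNA of 3 deer, so the 4 lung and the 4 spleen libraries stand on 12 deer, and the lung and the spleen library of a stage came from the same animals. There was 1 library for each organ and stage, so the 4 libraries of an organ differ in age as well as in animals. Where libraries were paired by stage, a p value measures how the organ difference varies over stages and pools together. Without the pairing, it measures the spread within an organ over stages and pools together. The comparison took the names of bovine miRNAs, 226 of which had at least 1 read in the 8 libraries, against 337 in all 40. Of these, 89 reached 10 reads in at least 4 of the 8 libraries and were tested, and the other 137 held between 0.0205% and 0.0972% of the reads of a library.

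miRNAs are RNAs of about the length of a short primer that guide Argonaute proteins to messenger RNAs and lower their translation or stability. The lung is an organ of airway and alveolar epithelium, capillary endothelium and smooth muscle, whereas the spleen combines lymphoid white pulp with blood-filled red pulp inside a capsule and trabeculae that, in ruminants, are rich in smooth muscle. Known cell type miRNAs of these tissues are miR-150 of mature lymphocytes, miR-142 of all blood cell lineages, miR-143 and miR-145 of smooth muscle, miR-126 of endothelium, the miR-200 family of epithelium, and miR-1 and miR-133 of striated muscle.

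The 8 libraries held between 417621 and 1046331 miRNA reads, and the aged spleen was the shallowest. Levels are given in RPM, reads per 1000000 miRNA reads of the library, so that 1 read was worth between 0.956 and 2.39 RPM. A few names took most reads. let-7b led in 6 libraries with 19.7% to 34.7% of the reads, while miR-26a led in the adolescence lung with 32.5% and in the aged spleen with 24.3%. The deposited tables list 7 pairs of names with the same or nearly the same reads, among them miR-26a with miR-26c and let-7b with miR-3596, so that such a pair is 1 measurement. Reads under second names stay in the total of a library, at 40.4% to 42.9% in lung and 26.5% to 32.5% in spleen. Levels in RPM are thus lowered more in lung than in spleen. Merging the names moved the log2 difference of miR-133a, lung minus spleen, from -3.07 to -2.82. Members of the miR-133 and miR-378 families differ by few bases, and how the reads were divided among them is not known.

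The organ labels were read against cell type markers. miR-200b of epithelium had 2 to 8 reads in every lung library and 0 in every spleen library, where 0 reads allow at most 3.31 to 7.18 RPM. miR-126-3p of endothelium had 3 to 30 reads in lung and 0 to 2 in spleen. The other markers of epithelium were at 0 in both organs except miR-375, with 3 reads over the 4 lung libraries. Of the 6 names of the ciliated epithelium list, miR-34a had 4 reads, all in the adolescence lung, miR-449a and miR-449c had 1 read each in lung, and spleen had 0. In spleen, miR-146a, an immune cell miRNA, had 5 to 22 reads against 0 to 4 in lung. The blood cell list of 10 names summed to between 554 and 4087 RPM in spleen and between 261 and 552 RPM in lung. The highest sums were those of the aged spleen and the adolescence lung, where miR-142-5p alone had 2849 and 369 RPM. The other spleens had 554 to 1129 RPM and the other lungs 261 to 327 RPM. The members miR-223, miR-155, miR-146b and miR-181a of this list had no read in any of the 8 libraries. miR-451 of red blood cells had 2 reads in lung and 2 in spleen. miR-200b, miR-126-3p and miR-146a thus lay on the side of their label, miR-142-5p overlapped between the organs, and most defining markers of both were at or near 0.

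A pair of libraries stood apart from the rest of their organs and resembled each other. Across the 89 tested miRNAs, the adolescence lung and the aged spleen had a Pearson's r of 0.944 on the log2 scale. The adolescence lung correlated with the other 3 lungs at a mean of 0.891 (0.858 to 0.923), and the aged spleen with the other 3 spleens at 0.859 (0.824 to 0.899). Among the other 6 libraries the mean r was 0.963 within lung, 0.977 within spleen, and 0.921 between them (0.898 to 0.934). Of all 40 libraries, the nearest to the adolescence lung was the aged spleen and the reverse held too, whereas each of the other 6 was nearest to a library of its own organ. These values describe likeness across miRNAs, which share a library and are not replicates. The cause of the likeness was not tested, and the organ differences below are given with and without these libraries.

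**Figure D1:**
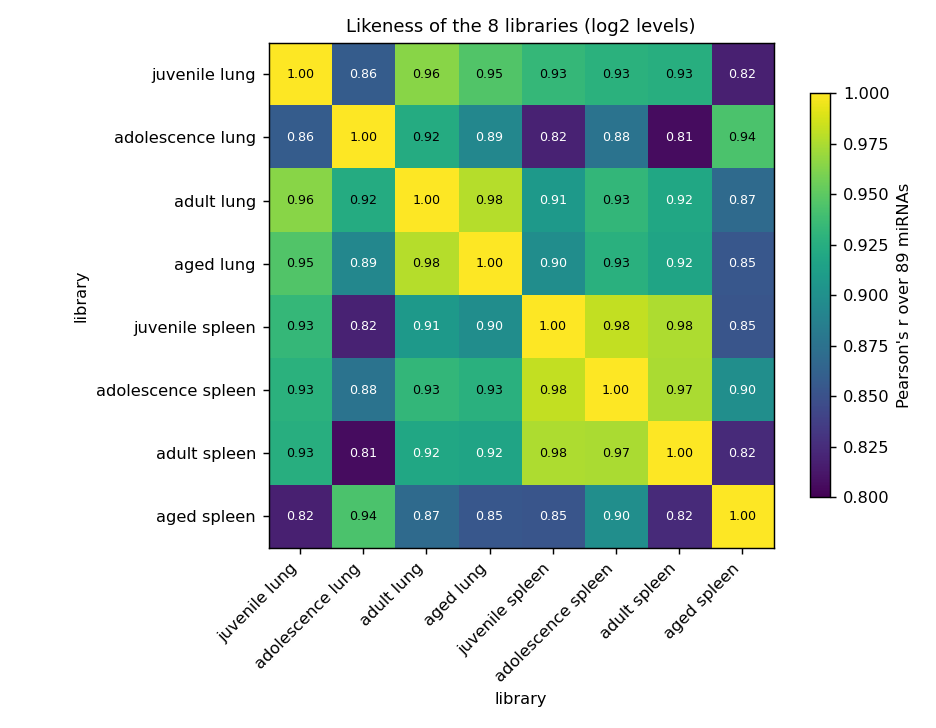
Pearson's r between each pair of the 8 libraries (rows and columns), over the log2 levels of 89 miRNAs. The adolescence lung and the aged spleen share the r of 0.94, above what either has with any other library of the 8.

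The first question was which miRNAs differed between the organs when all 8 libraries were paired by stage. At an adjusted p below 0.01 (limma with Benjamini-Hochberg adjustment) and an absolute log2 difference above 1, 0 of 89 passed (0%), although 18 had an unadjusted p below 0.05. edgeR also called 0, and DESeq2 called 9. At the wider limit of 0.05, 11 of 89 passed (12.4%): 3 were higher in lung (3.37%) and 8 were higher in spleen (8.99%). Lung had more miR-1468, miR-490 and miR-452. Spleen had more miR-145, miR-133a, miR-133b, miR-133c, miR-378, miR-378c, miR-378d and miR-95. All 11 had the same direction at 4 of 4 stages, which 24 of the 89 tested did. Of these 11, miR-1468 and miR-452 reached 10 reads in 0 spleen libraries, miR-133c in 0 lung libraries, and miR-133b and miR-95 in 1 lung library. These 5 passed the minimum of reads through the organ where they were higher, so that their being called adds no support to the counts. With 10 reads required in all 8 libraries, 5 names passed at 0.05 and only miR-490 at 0.01. A fit of organ and stage over all 40 libraries, whose error estimate draws on every organ, called 10 of 89 at 0.01 (11.2%), and 9 of these were among the 11. The median log2 difference of all 89 was -0.19.

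When the adolescence lung and the aged spleen were left out, 14 of 89 passed the limit of 0.01 (15.7%), with 27 at an unadjusted p below 0.05. This repeat compared 3 lung with 3 spleen libraries without the pairing, because only the juvenile and adult stages kept both organs. The libraries left out were picked in these same data and lay farthest from their organs. Their median absolute log2 shifts from the rest of their organ were 1.29 and 1.30, against 0.27 to 0.85 for the other 6. Leaving them out narrows the spread within organs that the p values rest on. The p values of the repeat, here and below, are thus too small to be read as added support. In this unpaired fit 9 of the 11 miRNAs above remained at 0.01 and in the same direction: miR-1468 and miR-490 on the lung side, and miR-145, the 3 miR-133 names and miR-378, miR-378c and miR-378d on the spleen side. With the stage block kept, which rests on the juvenile and adult stages, 4 of the 9 passed at 0.01: miR-1468, miR-490, miR-133a and miR-133b. The other 5 lost the call, with limma adjusted p values of 0.0101 for miR-378c, 0.0115 for miR-378d, 0.0216 for miR-145 and for miR-378, and 0.0275 for miR-133c. miR-452 kept its direction in the unpaired fit and separated the 3 lungs from the 3 spleens but had a limma adjusted p of 0.0141. miR-95 did not remain (limma adjusted p = 0.151). In addition 5 names passed that had not passed in the 8 libraries: miR-26a with its second name miR-26c, and miR-30f, in lung, and miR-150 and miR-1388-5p in spleen. None of the 5 passed at 0.01 with the stage block kept, where the limma adjusted p values ran from 0.0101 for miR-150 to 0.0371 for miR-30f. In the fit of organ and stage over the 38 libraries other than this pair, miR-1388-5p passed (limma adjusted p = 0.00674), and miR-26a (0.0987), miR-150 (0.0998) and miR-30f (0.216) did not. edgeR on the 6 libraries called miR-26a, miR-26c and miR-1388-5p but not miR-150 or miR-30f. In 6 libraries the median difference of all tested miRNAs was 0.08.

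**Figure D2:**
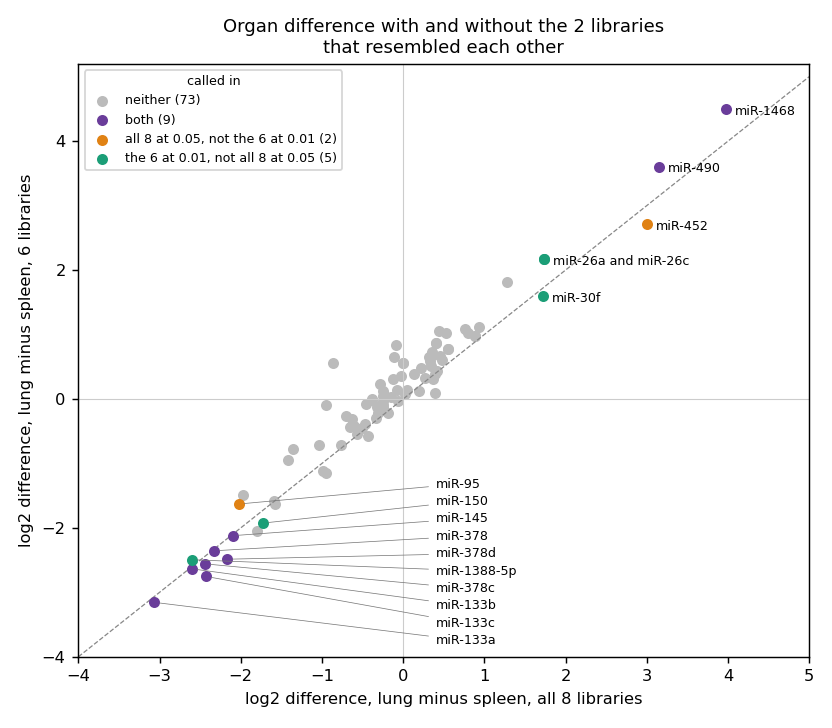
log2 difference of lung minus spleen for 89 miRNAs in all 8 libraries (x axis) and in the 6 libraries without the adolescence lung and the aged spleen (y axis), with the line of equal values dashed. The 9 purple points passed in both (adjusted p below 0.05 in 8 and below 0.01 in 6), the 2 orange points in the 8 only and the 5 green points in the 6 only.

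Among the tested miRNAs, miR-1468 had the highest log2 difference of lung minus spleen, from 20 to 227 reads in a lung library and 2 to 8 in a spleen library. It is an X-linked miRNA for which no cell type is named here. Its levels in juvenile, adolescence, adult and aged deer were 217, 30.8, 112 and 128 RPM in lung, against 8.23, 7.86, 8.83 and 4.79 RPM in spleen. The organs did not overlap, and the lowest lung value was that of the adolescence lung. The log2 difference was 3.98 (SE 0.58, limma adjusted p = 0.0109) in 8 libraries and 4.50 (SE 0.46, limma adjusted p = 9.78e-05) in 6. Lung had the highest mean level of miR-1468 of the 10 organs, at 122 RPM, and the next was heart at 33.2 RPM. Ranks of organs here and below rest on means in RPM. miR-1 took 919199 RPM in skeletal muscle and 465062 RPM in heart, which lowers every other name there.

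miR-490, which lies in an intron of the muscarinic receptor gene CHRM2 and is known from smooth muscle, followed. Its levels were 205, 203, 325 and 592 RPM in lung and 27.1, 48.3, 48.6 and 57.5 RPM in spleen, again without overlap, and the adolescence lung lay beside the juvenile lung. On the log2 scale the difference was 3.15 (SE 0.45, limma adjusted p = 0.0109) in 8 libraries and 3.60 (SE 0.51, limma adjusted p = 0.00115) in 6. Lung ranked only 5 of 10 organs for miR-490, with brain highest at a mean of 988 RPM, so that the difference from spleen did not set lung above the other organs.

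miR-452, an X-linked miRNA within the GABRE gene, was scarce. Lung had 9.56, 49.2, 15.6 and 32.6 RPM, and spleen had 1.18, 6.74, 2.21 and 2.39 RPM, where each value rests on 1 to 6 reads. The organs did not overlap, but the adolescence library was the highest of its organ in both. Lung exceeded spleen by a log2 difference of 3.00 (SE 0.51, limma adjusted p = 0.0182) in 8 libraries and 2.71 (SE 0.69) in 6. miR-452 was chosen by its calls at the wider limit, after its values were seen, as was miR-95.

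miR-145, which promotes the contractile state of smooth muscle, was the most abundant of the spleen miRNAs. Its levels were 126647, 189707, 198873 and 136607 RPM in spleen, against 27399.6, 32893.5, 21865.8 and 30838.4 RPM in lung. All 4 spleens exceeded all 4 lungs, and the aged spleen lay within the range of the other spleens. The log2 difference was -2.10 (SE 0.53, limma adjusted p = 0.0446) in 8 libraries and -2.12 (SE 0.33, limma adjusted p = 0.00129) in 6. Spleen had the highest mean of the 10 organs, 162959 RPM, and lung was 6 of 10. miR-143, its partner in a shared primary transcript, had only 8 to 35 reads in a spleen library and 0 to 4 in a lung library, too few to be tested. The smooth muscle list thus split, with miR-145 higher in spleen and miR-490 higher in lung.

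The miR-133 family, which represses smooth muscle and proliferation genes in heart and skeletal muscle, was higher in spleen. miR-133a measured 3388, 5049, 5650 and 1839 RPM in spleen and 253, 259.9, 261 and 655 RPM in lung. The aged deer came closest to each other, with the highest lung and the lowest spleen value, yet the organs did not overlap. On the log2 scale lung minus spleen was -3.07 (SE 0.56, limma adjusted p = 0.0202) in 8 libraries and -3.15 (SE 0.48, limma adjusted p = 0.00129) in 6. miR-133b ranged from 47.9 to 90.5 RPM in spleen and from 3.91 to 17.3 RPM in lung, with a log2 difference of -2.60 (SE 0.63) in 8 libraries and -2.64 (SE 0.60) in 6. miR-133c ranged from 16.6 to 48.3 RPM in spleen and from 1.30 to 12.3 RPM in lung, where it had 1 to 8 reads, with a log2 difference of -2.43 (SE 0.58) in 8 and -2.75 (SE 0.60) in 6.

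miR-1, which is transcribed together with miR-133a, did not pass in either fit. Its levels were 5418, 7564, 1782 and 52057 RPM in spleen and 969, 4815, 1047 and 1030.5 RPM in lung. The aged spleen and the adolescence lung held far the highest values of their organs, and the adolescence lung exceeded the adult spleen. Its log2 difference was -1.97 (SE 0.93, limma adjusted p = 0.316) in 8 libraries and -1.49 (SE 0.50, limma adjusted p = 0.0592) in 6. The ratio of miR-1 to miR-133a was 18.5 in the adolescence lung and 28.3 in the aged spleen. In the other lungs it lay between 1.57 and 4.02 and in the other spleens between 0.315 and 1.60. In skeletal muscle it was 33.5 to 103, and in heart 0.599 to 27.9. Of the 8 names of the striated muscle list, 4 were tested and 3 were higher in spleen at 0.05, as were 8 of all 89 (8.99%), with a median log2 difference of -2.52 against -0.19 over all, and miR-206, miR-208a, miR-208b and miR-499 had no reads. Whether RNA of muscle tissue had a part in these levels was not tested. In RNA of a whole organ, fewer cells of a type and less of an RNA per cell cannot be told apart.

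miR-378, which lies in the gene of the metabolic coactivator PGC-1beta and is abundant in heart and muscle, was higher in spleen together with its relatives. miR-378 measured 110223, 87628, 51364 and 29539 RPM in spleen and 21192, 6150.2, 7253 and 7663 RPM in lung. The organs did not overlap, with the aged spleen lowest and the juvenile lung highest. On the log2 scale lung minus spleen was -2.33 (SE 0.47, limma adjusted p = 0.0237) in 8 libraries and -2.36 (SE 0.44, limma adjusted p = 0.00484) in 6. miR-378c ranged from 1307 to 5858 RPM in spleen and from 209.8 to 786 RPM in lung, and miR-378d from 67.0 to 321 RPM and from 11.7 to 55.4 RPM. Their log2 differences were -2.44 (SE 0.47) and -2.17 (SE 0.49) in 8 libraries, and -2.56 (SE 0.53) and -2.49 (SE 0.59) in 6. miR-378b had -1.58 (SE 0.63, limma adjusted p = 0.207), and its levels overlapped at 69.8 RPM in the juvenile lung and 64.7 RPM in the aged spleen. Spleen ranked second to heart for miR-378 and miR-378c and first for miR-378d among the 10 organs by mean RPM. Skeletal muscle had 29543 RPM of miR-378 and 66.2 RPM of miR-378d. Heart had 174 RPM of miR-378d, against 184 RPM in spleen. The miR-1 reads of skeletal muscle and heart lower these values of theirs. Their places below spleen were not tested with miR-1 set aside, so these ranks of spleen hold for RPM alone.

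**Figure D3:**
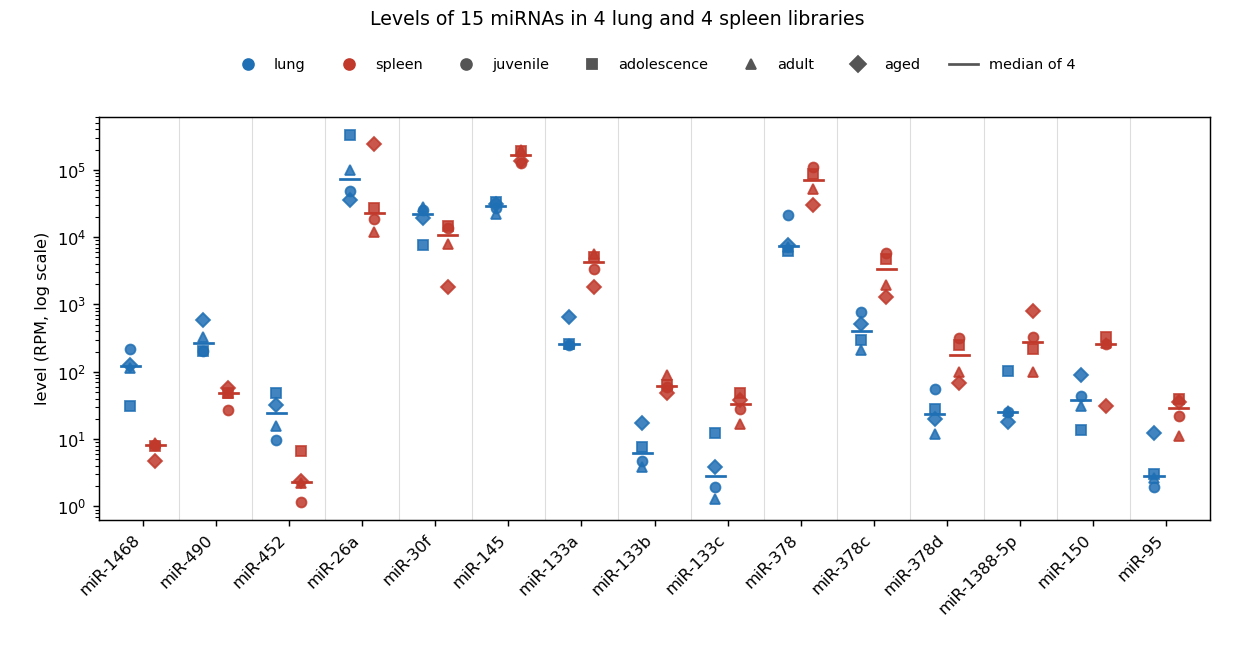
Levels of 15 miRNAs in RPM (log scale) in each lung (blue) and spleen (red) library, with a symbol for each stage and a line at the median of 4. The organs are apart for miR-1468, miR-490, miR-145, miR-133a and miR-378, whereas for miR-26a, miR-150 and miR-30f the adolescence lung or the aged spleen falls in the range of the other organ.

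For the miRNAs gained in the repeat, the libraries left out lay apart from the rest of their organ. miR-150, which restrains the transcription factor MYB in lymphocytes, had 256, 325 and 267 RPM in the juvenile, adolescence and adult spleens but 31.1 RPM in the aged spleen. Lung had 44.0, 13.8, 31.3 and 90.2 RPM. The aged spleen thus lay within the lungs, and at the aged stage the direction turned, with a log2 difference of 1.53 against -1.83, -3.50 and -3.11 at the earlier stages. Over 8 libraries the log2 difference was -1.73 (SE 0.87, limma adjusted p = 0.341), and over 6 it was -1.93 (SE 0.46, limma adjusted p = 0.00987). Spleen had the highest mean of the 10 organs, at 219.8 RPM.

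miR-26a, known to repress the histone methyltransferase EZH2 and to be induced in differentiating cells, was likewise out of place in the aged spleen. Lung had 48127, 325107, 100298 and 35235 RPM, and spleen had 18402, 26696, 11966 and 243240 RPM. The aged spleen exceeded 3 of the 4 lungs, while the other 3 spleens lay below every lung. Its log2 difference was 1.73 (SE 1.13, limma adjusted p = 0.54) in 8 libraries and 2.17 (SE 0.48, limma adjusted p = 0.00805) in 6.

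miR-30f, of a family abundant in lung and kidney epithelium, measured 25400.2, 7659, 27865 and 19151 RPM in lung and 13498, 14505, 7904 and 1813 RPM in spleen. Both libraries left out were the lowest of their organ, and only the adolescence lung fell among the spleens. The log2 difference was 1.72 (SE 0.60, limma adjusted p = 0.158) in 8 libraries and 1.59 (SE 0.37, limma adjusted p = 0.00987) in 6. miR-1388-5p measured 329, 221, 99.4 and 807 RPM in spleen and 24.8, 101.5, 26.1 and 18.2 RPM in lung. The adolescence lung reached the adult spleen, and the log2 difference was -2.61 (SE 0.84, limma adjusted p = 0.117) in 8 libraries and -2.49 (SE 0.50, limma adjusted p = 0.00651) in 6. Of the organ means of miR-1388-5p, spleen came second to testes.

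miR-95 was lost in the repeat. Its levels were 22.3, 39.3, 11.04 and 35.9 RPM in spleen and 1.91, 3.08, 2.61 and 12.5 RPM in lung, so that the aged lung just exceeded the adult spleen. Its log2 difference was -2.02 (SE 0.50, limma adjusted p = 0.0446) in 8 libraries and -1.63 (SE 0.72) in 6. The lung values rest on 2 to 13 reads, so that its level in lung is loosely measured.

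The 4 lung and the 4 spleen levels in RPM did not overlap for 13 of the 89 miRNAs (14.6%). These were the 10 of the 11 named above other than miR-95, together with miR-342, miR-677 and miR-3120, named after their values were seen. Of the blood cell list, 3 of 10 were tested. miR-342, found in lymphoid and myeloid cells, had 275 to 1135 RPM in spleen and 142 to 199.7 RPM in lung, but its log2 difference of -1.42 (SE 0.53) had a limma adjusted p of 0.188, and without the 2 libraries it was -0.95 (SE 0.44). Without the adolescence lung and the aged spleen, the 3 lungs and 3 spleens did not overlap for 32 of 89 (36%), 9 higher in lung and 23 in spleen. These levels were not divided by TMM factors, and scaling by total reads moves log2 differences toward spleen. Among the 23, miR-3120 had a log2 difference of -0.0012 and let-7c of -0.12 with TMM factors in 6 libraries. At the juvenile stage miR-3120 was higher in lung by 0.13 with TMM factors.

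The difference was also examined within the pair of libraries that resembled each other. The adolescence lung had a higher log2 level than the aged spleen by 3.14 for miR-1468, by 2.54 for miR-490 and by 4.54 for miR-452. For miR-133a, miR-145 and miR-378 the log2 difference of these libraries was -2.08, -1.31 and -1.52, on the spleen side as in the other 6. Of the 11 miRNAs called at 0.05, to which this pair contributed, 9 differed by more than 1 in the same direction in it. Of the 14 called without the pair, 11 differed in this pair by more than 1 in the same direction. Of these 14, 0 differed in the other direction. The 11 count miR-26a and its second name miR-26c separately. The pair was left out of those fits but had a part in the choice of the 89 names. Without its reads, miR-1468 and miR-133c would have missed the minimum, so that the count is not an independent check. Of all 89 tested, 33 differed by more than 1 between these libraries (37.1%), 14 higher in the adolescence lung (15.7%) and 19 higher in the aged spleen (21.3%). This is a comparison of 2 libraries from different deer and stages and carries no test.

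The adolescence lung and the aged spleen also shared shifts from the rest of their organs, among them those of all 5 names gained in the repeat. Relative to the mean of the other 3 libraries of their organ, 16 of the 89 were higher by more than 1 on the log2 scale in both, 22 were lower in both, and 1 moved in opposite directions. The shifts of the libraries correlated at r = 0.81 over the 89 miRNAs, which share these libraries. Among the largest shared upward shifts were those of miR-142-5p, with shifts of 3.45 in the adolescence lung and 6.27 in the aged spleen, and of miR-7, with 2.99 and 3.06. miR-26a shifted by 2.95 and 3.71, and miR-374a by 2.72 and 4.23. On the lower side, miR-328 shifted by -3.84 and -4.46, miR-423-3p by -3.54 and -3.25, and the abundant let-7b by -1.63 and -2.25. These names were picked by their shifts, which get no test.

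**Figure D4:**
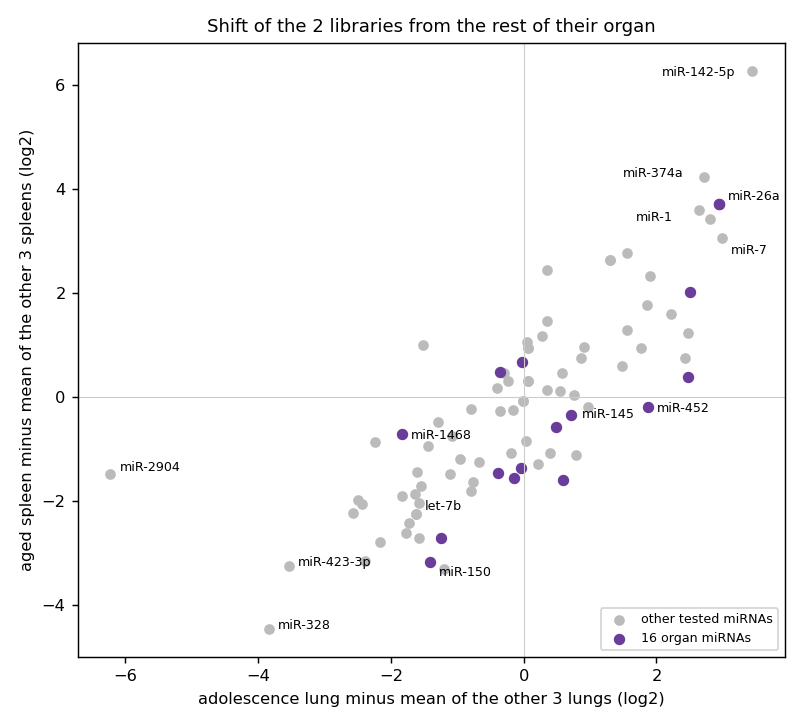
For each of 89 miRNAs, the log2 level in the adolescence lung minus the mean of the other 3 lungs (x axis) and in the aged spleen minus the mean of the other 3 spleens (y axis). Most points lie along the diagonal (r = 0.81), and of the 16 organ miRNAs in purple (called in all 8 libraries at 0.05 or in 6 at 0.01), miR-145, at 0.71 and -0.34, lies near the centre.

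let-7b and miR-142-5p, which shifted in both libraries, were called in neither fit. let-7b measured 313743, 78892, 301078 and 346815 RPM in lung and 237559, 196868, 288275 and 51561 RPM in spleen. The adolescence lung and the aged spleen were far below the rest, and its log2 difference was 0.89 (SE 0.69, limma adjusted p = 0.638) in 8 libraries and 0.98 (SE 0.29, limma adjusted p = 0.0324) in 6, under the limit of 1 in both. Of the let-7 family, which holds back growth genes in differentiated cells, 7 of 10 names were tested and 0 passed at 0.05, with a median log2 difference of 0.32. This median counts let-7b and its second name miR-3596 separately, at 0.89 each. The others were let-7a-5p (-0.25), let-7c (-0.32), let-7d (-0.24), miR-98 (0.32) and let-7i (0.45). miR-142-5p had 18.2, 369, 49.5 and 91.2 RPM in lung and 57.6, 104, 6.62 and 2849 RPM in spleen, and its log2 difference was -0.09 (SE 1.28, limma adjusted p = 0.993). The names that may be fragments of other RNAs summed to 526 RPM in the adolescence lung and 749 RPM in the aged spleen, the lowest of each organ, against 1241 to 3774 RPM in the other lungs and 1617 to 2662 RPM in the other spleens.

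Of the other lists, 0 members passed at 0.05 among 5 tested of the mesenchyme list (median log2 difference 0.37), 5 of the imprinted DLK1-DIO3 cluster (median -0.98) and 4 of the miR-30 family (median 0.85), and the median of all 89 was -0.19. The mesenchyme median counts miR-199a-3p and its second name miR-3604 separately, at 0.55 each, beside miR-199a-5p (0.37), miR-199c (-0.02) and miR-214 (-0.66).

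Each stage was last compared on its own with the random sampling model of the DEGseq method (q below 0.01 and an absolute log2 difference above 1), which weighs the reads of 2 libraries and says nothing of the organs at large. It called 36 of 179 miRNAs in the juvenile (20.1%), 72 of 180 in adolescence (40%), 42 of 175 in the adult (24%) and 81 of 188 in the aged deer (43.1%). The stages that hold 1 of the libraries apart thus had the most calls. miR-1468 and miR-490 were called higher in lung at 4 of 4 stages. On the spleen side 10 were called at 4 of 4: miR-145, miR-133a, miR-133b, miR-133c, miR-378, miR-378c, miR-378d, miR-1388-5p, miR-677 and miR-216b. miR-216b had 14.6 to 19.2 RPM in spleen and 0.956 to 2.61 RPM in lung. It missed the minimum for the test over libraries, with 8 reads in the aged spleen and 1 to 2 in a lung library. A further 30 miRNAs, among them let-7b, miR-26a, miR-150 and miR-7, were called higher in lung at 1 stage or more and higher in spleen at another.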

How the data were processed

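Small RNA was sequenced from pooled RNA of 3 deer per library. Per the submitters' processing notes, CASAVA, bcl2fastq 1.8.4 and Bowtie were used, and the authors mapped reads to the bovine genome, whose build is not given in the sources used here. The deposited values are RPM (headed as TPM), reads per 1000000 miRNA reads. All values of the 8 libraries were whole reads within 0.01 read, so reads were recovered from the RPM values. Numbered miRNAs were left out of the comparison.

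Levels were divided by TMM factors (edgeR 4.0.16; 0.706 to 1.43) and log2(RPM + 1) was tested with limma 3.58.1 (R 4.3.3; empirical Bayes with a trend), with organ and, for all 8 libraries, stage as a block. Fold changes on this scale understate those of low names. A call needed an adjusted p (Benjamini-Hochberg) below 0.01 and an absolute log2 difference above 1; 0.05 is a planned wider limit. Tested names had 10 reads in 4 of 8 libraries. The repeat without the adolescence lung and the aged spleen took the same 89 names. The block had 3 residual degrees of freedom and a prior of 3.97, the repeat 4. The pairing rests on the shared deer of a stage; deviations of same-stage libraries correlated at 0.77, -0.27, 0.49 and -0.33. Scripts were tested on simulated data. DESeq2 1.42.0 and edgeR were alternatives. Limits allowed by 0 reads are 3 reads and cover counting error only.

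Named miRNAs were the 4 given markers (miR-1468, miR-145, miR-150, miR-133a), those called in either fit by size, and members of lists that averaged 1000 RPM or mark cell types; others are said to be chosen after their values were seen. Members and lists were chosen with earlier results of these data known. Sequences and genome positions are not analysed here.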

Additional observations from a re-analysis of the deposited data

Results flagged for a closer look

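In 67 groups of 4 libraries (1 miRNA in 1 organ), 17 had a highest or lowest library whose gap to the next, as a part of the range, exceeded Dixon's critical value. That value flags about 1 in 20 independent groups. These groups share the 8 libraries, span 4 ages and include second names, so that rate is no baseline for them. Of the 17 flagged, 13 were the adolescence lung or the aged spleen, a pair chosen with earlier results of these data known. In the adolescence lung, let-7b and its second name miR-3596 were lowest at 78891.9 RPM, against at least 301078 RPM in the other lungs, and miR-1 (4815.3 RPM), miR-7 (14562.8 RPM), miR-17-5p (2363.8 RPM) and miR-1388-5p (101.5 RPM) were highest. In the aged spleen, let-7c was lowest at 6156.3 RPM, against 19074 to 20213 RPM in the other spleens. miR-1 (52056.8 RPM), miR-7 (20109.1 RPM), miR-26a (243240 RPM), miR-26c (243230 RPM), miR-142-5p (2849 RPM) and miR-142-3p (47.9 RPM, 20 reads) were highest there. The juvenile lung was highest for miR-378 (21192 RPM) and miR-409b (3959 RPM), and the aged lung for miR-133a (655 RPM) and miR-95 (12.5 RPM).

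Outside the comparison, 4 of the 10 numbered miRNAs with 10 reads in 4 libraries did not overlap between the organs. Number 25 had a median of 424 RPM in spleen against 33.5 to 47.0 RPM in lung, number 22 a median of 55.1 RPM against 3.08 to 13.4 RPM, and number 206 a median of 16.1 RPM against 1.92 to 4.61 RPM. Number 206 had 632 RPM in the aged spleen and 11.04 to 18.8 RPM in the other spleens. Number 49 had a median of 46.5 RPM in lung against 0 to 7.86 RPM in spleen. These were not tested.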

How the results depend on the processing

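Of 33 named miRNAs tested, the 16 called in either fit kept their direction under every one of up to 18 alternatives that tested them. These 16 were picked by their differences in the same libraries, which the alternatives share. The fit of 6 libraries is itself 1 of the alternatives, so the kept directions are no independent support. Of the other named miRNAs, 9 changed sign in at least 1 alternative and the rest did not. At the limit of 0.01 the 8 libraries gave 0 calls, against 11 at 0.05, 1 with DESeq2 size factors (miR-490), 2 with no minimum of reads (miR-1468, miR-490), 1 with 10 reads in all 8 libraries (miR-490), 3 with names of the same reads merged (miR-1468, miR-490, miR-452), 9 with DESeq2 and 10 with all 40 libraries. Without the stage block, that is without the pairing, 3 passed (miR-133a, miR-1468, miR-490). Leaving out 1 stage gave 0 to 12 at 0.01 and 0 to 24 at 0.05: 12 and 24 without the aged pair, 1 and 4 without the adolescence pair, and 0 without the juvenile or the adult pair. Requiring 10 reads in all 8 libraries left 5 at 0.05. Without the adolescence lung and the aged spleen the calls were 14 without a block (17 at 0.05), 4 with it (stages 1 and 3; miR-133a, miR-133b, miR-1468, miR-490) and 10 in a fit of the other 38 libraries. With no minimum of reads, an alternative chosen after seeing the data, 2 were called without the pair, miR-1468 and miR-200b, so that 1 of the 14 was kept. Leaving out 1 more library gave 1 to 22: 22 without the juvenile lung, 4 without the adult lung, 9 without the aged lung, 4 without the juvenile spleen, 1 without the adolescence spleen (miR-1468) and 11 without the adult spleen. miR-1468 passed in each of these 6. It reached the minimum of reads in lung libraries alone, and the 6 fits share libraries. Its repeated call in them is thus no independent support. The cause of the changes in the number of calls was not tested.

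Scaling by total reads moved the median log2 difference of all tested miRNAs by -0.38 and DESeq2 size factors by 0.13. The juvenile stage alone gave 8 calls in lung and 28 in spleen by total reads but 24 and 15 with TMM factors.

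Values that changed sign were log2 differences of miRNAs not called. let-7a-5p (-0.25 in all 8 libraries) turned to 0.0011 with merged names and 0.038 in the 6 libraries. miR-142-5p (-0.09) turned to 0.049 with DESeq2 size factors, 0.28 with edgeR, 0.42 with DESeq2, 0.16 with merged names, and 0.84, 1.07 and 1.09 in the 3 fits without the pair. With total reads miR-17-5p turned to -0.23, miR-199a-5p to -0.049, miR-486 to -0.20 and miR-7 to -0.087. miR-17-5p turned to -0.076 in the 38 libraries and miR-192 to 0.42 without the pair but with the block. Leaving out 1 stage, let-7a-5p ranged from -0.74 to 0.54, let-7c from -0.80 to 0.41, miR-142-5p from -0.93 to 1.65, miR-17-5p from -0.062 to 0.85, miR-192 from -0.73 to 0.76, miR-214 from -1.06 to 0.031, miR-486 from -0.042 to 0.62 and miR-7 from -0.23 to 1.69. At 417621 reads the aged spleen, where 1 read is 2.39 RPM, is the least precise of the 8.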
